A study of Mus musculus with 10 samples.

Results

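Immunity-related GTPases are a family of interferon-inducible GTPases, and 7 of them were followed here as *Irgm1*, *Irgm2*, *Igtp*, *Iigp1*, *Tgtp1*, *Tgtp2* and *Ifi47*. The members were taken by gene name from a table of 36009 genes, and all 7 were found and passed the filter on low counts that left 16041 genes for testing. Expression was measured in 10 CT26 tumors from female BALB/c mice labelled WT. CT26 is a mouse colorectal carcinoma line, grown here under the skin. Every tumor was untreated when its resected piece was taken, and a hydrogel carrying poly(I:C), a synthetic double-stranded RNA, was then placed on what remained. The label RS marked 6 responders, whose tumors regressed completely, and the label NR marked 4 non-responders, whose growth was not delayed. The comparison asks whether the tumors already differed before treatment. Animal age and sequencing batch were not given in the labels used here, the experiment was performed once, and each library came from 1 tumor, numbered by accession order within its group.

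In mice, these proteins defend cells against microbes that live inside vacuoles, and interferon gamma is their best known inducer. The effector class, to which *Iigp1*, *Tgtp1*, *Tgtp2* and *Ifi47* belong, collects on the vacuole membrane and breaks it open. The regulatory class, *Irgm1*, *Irgm2* and *Igtp* (also called Irgm3), sits on the membranes of the cell itself and keeps the effectors in their inactive form there. Delivery of effectors to the vacuole uses the enzymes that attach ATG8 proteins to membranes, better known from autophagy.

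The classes are told apart by 1 codon in the nucleotide-binding loop, so this stretch is shown for the members on chromosome 11. The sequences are 24 coding bases read on the coding strand from GRCm38 with the GENCODE M21 annotation, and the capitals mark the codon that gives the classes their names, methionine in the regulatory class and lysine in the effector class.
Irgm1, chr11:48866761-48866784, minus strand: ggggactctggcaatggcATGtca
Irgm2, chr11:58219695-58219718, plus strand: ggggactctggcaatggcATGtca
Igtp, chr11:58206275-58206298, plus strand: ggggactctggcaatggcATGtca
Ifi47, chr11:49095648-49095671, plus strand: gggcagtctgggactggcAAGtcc
Tgtp1, chr11:48987667-48987690, minus strand: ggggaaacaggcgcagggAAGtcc
Tgtp2, chr11:49059534-49059557, minus strand: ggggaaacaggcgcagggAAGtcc
The 3 regulatory genes carried the same 24 bases, and *Tgtp1* and *Tgtp2* shared theirs. *Iigp1* carried the lysine codon too.

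Over the whole coding sequence, *Tgtp1* and *Tgtp2* were identical at 99.7% of 1245 aligned positions. The regulatory genes were 63.3% to 67.4% identical to one another, and every pair outside these was between 50.5% and 58.4% identical. This bears on the counts. Of the 31-base words in the annotated transcripts of *Tgtp1*, 84.4% also occurred in another gene, mostly *Tgtp2*, and the share was 90.5% for *Tgtp2*. The other 5 members shared between 2.9% (*Irgm1*) and 15.9% (*Igtp*) of their words, so the split of reads between *Tgtp1* and *Tgtp2* is uncertain while the rest are better separated. The annotated spans of *Igtp* and *Irgm2* also overlap on the same strand.

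The windows before the start sites were examined for letters bound by the interferon-activated factors. The interferon-stimulated response element was searched as GAAA, any 2 bases and GAAA again, and the gamma-activated site as TTCNNNGAA, each on both strands, in RefSeq windows of GRCm38.p6 that run from 250 bases before to 50 bases after a start site. RefSeq held windows for 6 of the 7 members, without *Iigp1*. The 60 bases around the matches follow on the strand of the gene, with matches in capitals.
Irgm1, chr11:48871421-48871480, minus strand: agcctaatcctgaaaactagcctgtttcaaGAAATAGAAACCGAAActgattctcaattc
Irgm2, chr11:58214883-58214942, plus strand: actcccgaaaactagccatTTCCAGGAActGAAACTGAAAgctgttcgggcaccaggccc
Igtp, chr11:58199492-58199551, plus strand: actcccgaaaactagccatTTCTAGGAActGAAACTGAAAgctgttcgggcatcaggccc
Tgtp1, chr11:48992294-48992353, minus strand: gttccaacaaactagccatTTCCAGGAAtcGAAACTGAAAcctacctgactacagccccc
Tgtp2, chr11:49064253-49064312, minus strand: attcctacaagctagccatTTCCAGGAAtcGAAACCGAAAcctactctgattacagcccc

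*Irgm2*, *Igtp*, *Tgtp1* and *Tgtp2* held both motifs, with the gamma-activated site upstream of the response element. *Irgm1* held 2 overlapping response elements and no match to the gamma-activated site. In the window of *Ifi47* neither set of letters was found. That window starts from the outermost of 5 annotated *Ifi47* transcripts, and the nearest other start lies 10113 bases away, outside it. Of all 32851 promoter windows, 3.443% held the response element letters, 8.298% the gamma-activated site letters and 0.454% both. The matches are descriptions of sequence, and no binding was measured.

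**Figure D1:**
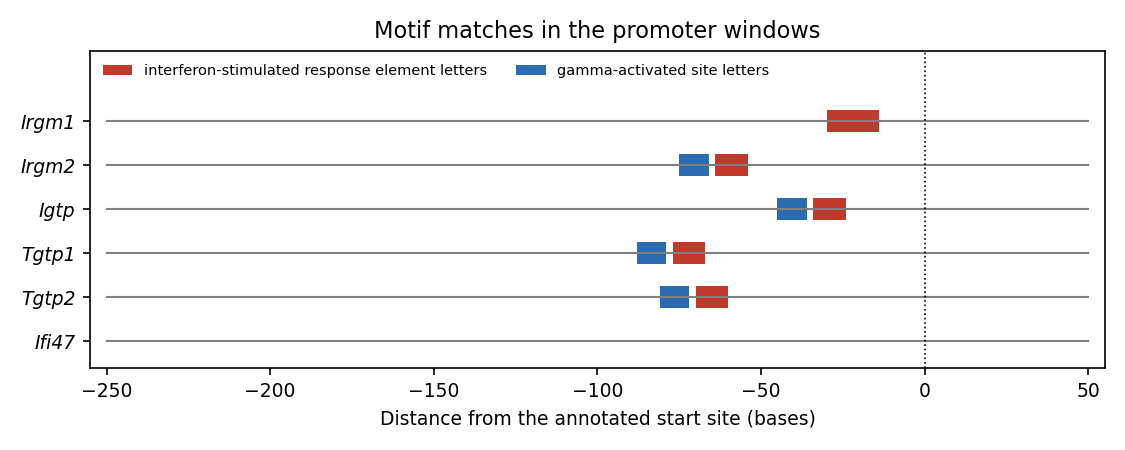
Motif matches by distance from the annotated start site in bases, 1 line for each member with a RefSeq window, with response element letters in red and gamma-activated site letters in blue. In *Irgm2*, *Igtp*, *Tgtp1* and *Tgtp2* a blue match stands just upstream of a red one, *Irgm1* has 2 overlapping red matches beginning 30 and 24 bases before the start, and *Ifi47* has none.

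All 7 members had higher estimates in responders, by 0.73 to 1.12 on the log2 scale (median 0.85), but none passed the test across all genes. By edgeR's quasi-likelihood test with Benjamini-Hochberg adjustment, 0 of 7 had an adjusted p under 0.05, while 8.06% of all tested genes did (4.71% higher and 3.35% lower in responders). The unadjusted p was under 0.05 for 6 of 7 members, against 15.6% of all genes that were both higher and under it. DESeq2 and limma-voom also called 0 of 7. Over the whole table they called 2575 of 25718 genes with a p-value (DESeq2) and 1082 of 16041 genes (limma-voom). The median log2 fold change of all genes was -0.01, and 48.2% of them had a higher estimate in responders. In whole-tumor RNA, more cells that make a transcript and more transcript per cell cannot be told apart.

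*Irgm1*, a regulator of the effector class, was measured at 59.7, 283.5, 258.9 and 160.5 CPM (counts relative to the scaled library total) in non-responders 1 to 4. In responders it lay between 247.4 and 386.0 CPM with a median of 333.6. Only responder 6 fell inside the non-responder range, and non-responder 1 was far below all other tumors. The log2 fold change was 0.81 (SE 0.33, n = 6 and 4; edgeR adjusted p = 0.134).

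*Irgm2* stood at 42.7, 237.6, 205.5 and 121.6 CPM in non-responders 1 to 4, and between 209.8 and 319.8 CPM (median 273.9) in responders. Its order of tumors resembled that of *Irgm1*, with 5 of 6 responders above every non-responder. The log2 fold change was 0.85 (SE 0.36; edgeR adjusted p = 0.140). *Igtp*, the third regulatory gene, was at 43.3, 300.1, 238.5 and 146.7 CPM in non-responders and between 263.7 and 419.1 CPM (median 338.9) in responders. Again only responder 6 lay inside the non-responder range. The log2 fold change of *Igtp* was 0.94 (SE 0.39; edgeR adjusted p = 0.1395).

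Among the effectors, *Iigp1* (also called Irga6) had the largest fold change of the 7 members and was the 1 member whose groups did not overlap. It is the member that lies apart from the others, on chromosome 18 (60376027 to 60392634, plus strand, GRCm38). It was measured at 49.9, 407.3, 370.6 and 186.8 CPM in non-responders 1 to 4 and between 427.4 and 664.3 CPM (median 550.6) in responders. The lowest responder was just above the highest non-responder. The log2 fold change was 1.12 (SE 0.43; edgeR adjusted p = 0.116). Groups did not overlap for 1 of 7 members and for 10.4% of all genes tested in either direction (5.84% higher in responders), so 1 of 7 was near that background.

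*Ifi47* (also called Irgd) was at 41.1, 178.3, 161.3 and 103.9 CPM in non-responders and between 162.2 and 248.0 CPM (median 204.6) in responders. Responder 6 lay below non-responder 2. The log2 fold change was 0.78 (SE 0.31; edgeR adjusted p = 0.1285).

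*Tgtp1* and *Tgtp2* are neighbouring, nearly identical copies that encode the effector Irgb6. *Tgtp1* was at 12.2, 116.0, 92.8 and 48.2 CPM in non-responders and between 109.5 and 186.4 CPM (median 132.2) in responders, and its log2 fold change was 1.04 (SE 0.44; adjusted p = 0.145 by edgeR). *Tgtp2* was at 29.0, 168.3, 155.0 and 89.1 CPM in non-responders and between 141.4 and 217.0 CPM (median 181.0) in responders, and its log2 fold change was 0.73 (SE 0.36; adjusted p = 0.209 by edgeR). In both copies responder 6 was the 1 responder inside the non-responder range. Of the reads assigned to the pair, *Tgtp1* received 29.7%, 40.8%, 37.5% and 35.1% in non-responders 1 to 4 and between 39.5% and 47.8% in responders. With the counts of the copies added, the log2 fold change of the pair was 0.85 (adjusted p = 0.178 by edgeR).

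**Figure D2:**
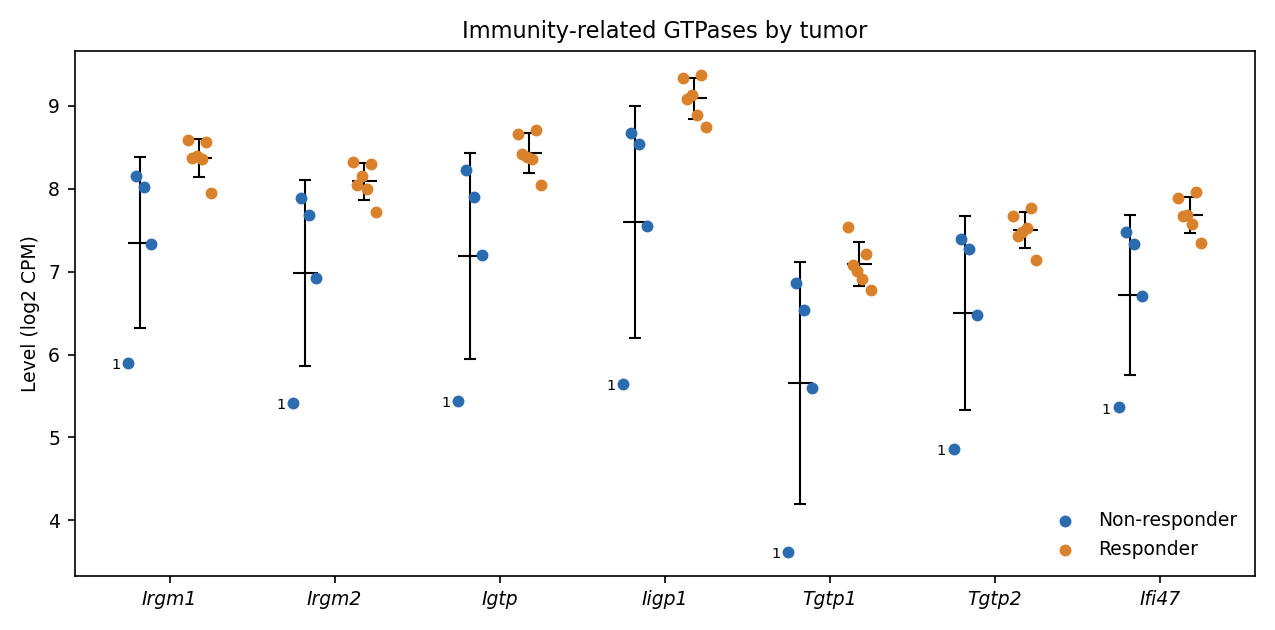
Level of each member in log2 CPM in the 4 non-responders (blue) and 6 responders (orange), 1 point per tumor, with the mean and SD of each group as black bars. Non-responder 1, marked 1, is the lowest tumor for all 7 members, and the groups are apart for *Iigp1* alone.

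A test of single genes over tumors gave smaller unadjusted p-values than the fit. By edgeR the unadjusted p was between 0.0249 (*Iigp1*) and 0.0698 (*Tgtp2*). In the exact two-sided permutation test over all 210 splits of the tumors, on log2 CPM, the unadjusted p was 0.00476 for *Iigp1*, which is the smallest this design allows, and 0.0286 for *Tgtp2*. It was 0.00952 for *Irgm2*, *Igtp*, *Tgtp1* and *Ifi47* and 0.0143 for *Irgm1*. These p-values are not adjusted for the 16041 genes of the table. The smallest can be reached only by a gene whose groups do not overlap, as held for 10.4% of all genes tested in either direction. The share of all genes that reached it was not computed.

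Much of the size of the difference came from 1 tumor. The mean of responders was between 5.05 times (*Ifi47*) and 11.3 times (*Tgtp1*) the value of non-responder 1. Against the mean of non-responders 2 to 4 it was between 1.33 times (*Tgtp2*) and 1.72 times (*Iigp1*). Without non-responder 1, the log2 fold changes fell to between 0.42 (*Tgtp2*) and 0.79 (*Iigp1*). All 7 unadjusted p-values were then under 0.05, as were those of 3654 of the 16285 genes tested in that fit. The adjusted p was still between 0.094 and 0.217 by edgeR, in a fit that called 16 genes of the whole table. Without non-responder 4, the unadjusted p was under 0.05 for 0 of 7 members and for 4106 of 16239 genes. It was under 0.05 for 1 of 7 members without responder 1 (4458 of 15983 genes) or responder 5 (3987 of 15942 genes). The coefficient of variation of the members was between 51.3% and 68.7% in non-responders and between 14.4% and 19.6% in responders.

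Non-responder 1 was also the tumor with the fewest leukocyte transcripts. The 5 leukocyte markers together, led by *Ptprc* (CD45), were at 705.41 CPM there and at 874.07 to 1029.3 CPM in the other non-responders. In responders they were at 1118.3 to 1687.9 CPM, and 4 of 5 passed the test as higher, against 4.71% of all genes tested. *Ptprc* itself rose by 0.60 on the log2 scale (SE 0.15; edgeR adjusted p = 0.0413). Without non-responder 4, 0 genes of the table were called, these and the markers named next included (4106 had an unadjusted p under 0.05). With the log2 CPM of *Ptprc* as a covariate, the estimates of all 7 members turned negative, between -0.36 and -0.20 (edgeR adjusted p from 0.927 to 0.974). That fit called 0 genes of the whole table, with 845 at an unadjusted p under 0.05. *Ptprc* was at 326.2 to 499.3 CPM in responders and 181.1 to 307.4 CPM in non-responders, without overlap. Group and *Ptprc* level therefore cannot be told apart in these tumors, and the part of leukocyte content in the difference was not tested.

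Other cell type lists moved with the groups too. For comparison, 4.71% of all genes tested passed as higher in responders and 3.35% as lower. Of the macrophage markers 6 of 8 passed as higher in responders, with summed levels of 4860.8 to 6641.5 CPM against 3307.1 to 4282.0 CPM. Of the T and NK cell markers 2 of 10 passed, with 166.23 to 372.34 CPM in responders and 82.928 to 171.38 CPM in non-responders. Skeletal muscle markers, 2 of 6 of which passed, summed to 360.44 to 1170.9 CPM in responders and 319.32 to 418.31 CPM in non-responders. With the muscle list as a covariate the members' estimates were between 0.56 and 0.90, and with the adipocyte list between 0.49 and 0.86. As in the main fit, 0 of 7 were called in either, but both fits called 0 genes of the whole table. Fibroblast markers had 0 of 7 higher and 1 of 7 lower, and endothelial markers 0 of 5 in either direction. Of the adipocyte markers 5 of 6 were tested. Their estimates in responders had the largest median of any cell type list, 2.17 on the log2 scale (1.08 to 2.93), with an unadjusted p under 0.05 for 5 of 5 and an adjusted p under 0.05 for 0 of 5. They summed to 18.343 to 78.76 CPM in responders and 8.7146 to 25.085 CPM in non-responders.

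The label of a colorectal carcinoma was checked against epithelial markers. *Krt8*, *Krt18*, *Epcam* and *Vil1* had at most 19 counts in any tumor and did not pass the filter. *Krt20*, an intestinal keratin, was present at 12.7 to 37.7 CPM in responders and 32.5 to 75.3 CPM in non-responders. The other tested epithelial markers had lower estimates in responders as well, and 0 of 4 were called.

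Levels can be compared between members only per length, here as CPM per kilobase of all annotated exons. *Igtp* was highest, with a median of 155 over the 10 tumors. It was followed by *Iigp1* (77.4), *Ifi47* (74.6), *Irgm2* (66.7), *Tgtp2* (58), *Irgm1* (52.7) and *Tgtp1* (36.9). In responders, *Igtp* was at 172 ± 27.9 (SD, n = 6) per kilobase and *Iigp1* at 94.9 ± 16.1, a gap wider than either SD. *Ifi47* (84 ± 12.5), *Irgm2* (74.4 ± 11.1), *Tgtp2* (62.2 ± 8.93), *Irgm1* (57.6 ± 8.49) and *Tgtp1* (43.1 ± 8.45) came next. The gaps from *Iigp1* to *Ifi47*, from *Ifi47* to *Irgm2* and from *Tgtp2* to *Irgm1* were smaller than the SD between tumors.

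All members were measured in the same tumors, so neighbours in this order were also compared within each tumor. *Igtp* over *Iigp1*, *Ifi47* over *Irgm2*, *Irgm2* over *Tgtp2* and *Irgm1* over *Tgtp1* held in 10 of 10 tumors. *Tgtp2* was above *Irgm1* in 9 of 10. The places of *Tgtp1* and *Tgtp2* in this order rest on the uncertain split of reads between the copies. A level per length for the pair together was not computed. By this length, the order of *Iigp1* and *Ifi47* turned with the group. *Iigp1* was the higher in 6 of 6 responders and 0 of 4 non-responders. In non-responders the means were 43.6 ± 28.6 for *Iigp1* and 49 ± 25.1 for *Ifi47* (SD, n = 4).

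The order depended on the length used. Per kilobase of the longest transcript, *Iigp1* had a median of 144 beside 155 for *Igtp*, and in responders the pair stood at 177 ± 29.9 and 172 ± 27.9 (SD, n = 6). *Irgm1* moved up from rank 6 to rank 4. The turn between *Iigp1* and *Ifi47* was not kept by the longest transcript. In non-responders 2 to 4, *Iigp1* was then at 130.5, 118.7 and 59.86 and *Ifi47* at 100.6, 90.97 and 58.62. *Iigp1* was thus the higher there, as in every responder, and the lower in non-responder 1 alone (15.99 against 23.18). Together the 7 members took between 0.1573% and 0.2385% of all counts in responders. In non-responders 1 to 4 they took 0.0278%, 0.1705%, 0.1463% and 0.0861%.

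**Figure D3:**
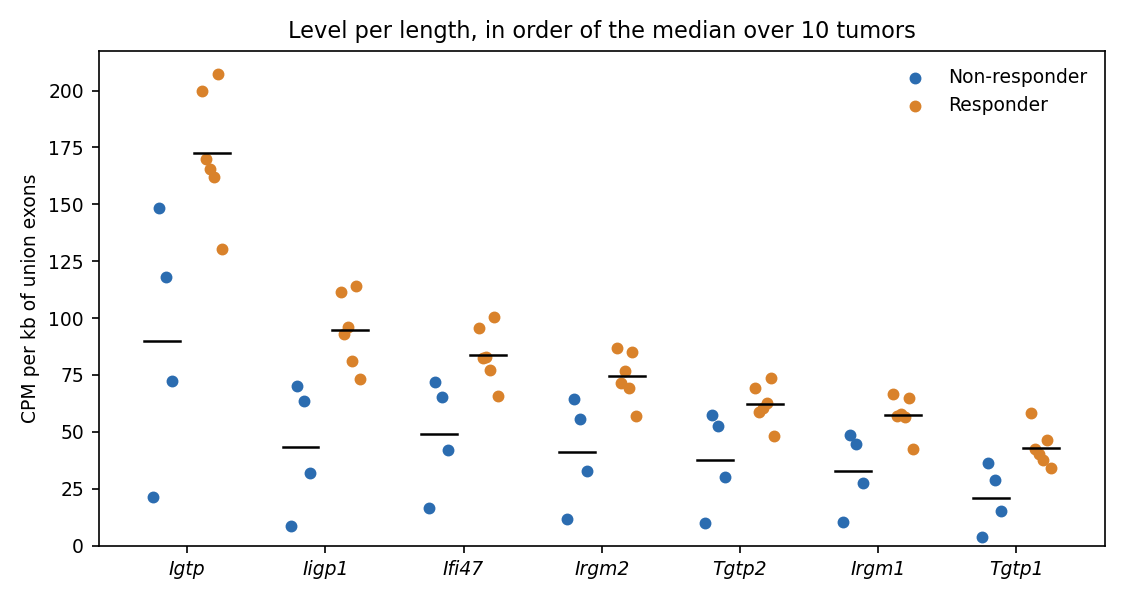
CPM per kilobase of annotated exons for each member, ordered by the median over 10 tumors, with 1 point per tumor and the group mean as a line (blue, 4 non-responders; orange, 6 responders). *Igtp* is highest with a median of 155 and *Tgtp1* lowest with 36.9, but the split of reads between *Tgtp1* and *Tgtp2* is uncertain.

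The members rose and fell together from tumor to tumor. Over the 10 tumors, Pearson's r of log2 CPM was between 0.989 and 0.999 for the 21 pairs of members. The pairs share libraries, and non-responder 1 stretches every range. Within the 6 responders r was between 0.764, for *Tgtp1* with *Tgtp2*, and 0.993, with a median of 0.954. Responders 1 and 5 held the highest levels and responder 6 the lowest level of every member in its group.

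Among genes averaging at least 1 CPM, the 5 outside the 7 members whose pattern was most like the mean of the standardized members included *Gbp3*, *Gm12250*, *Gm43302* and *Apol6*. Their r over 10 tumors was 0.9984, 0.9983, 0.9977 and 0.9975. *Gbp3* is a guanylate-binding protein, *Gm12250* the locus of the family protein Irgb10, and *Apol6* an apolipoprotein L gene. Within responders their r was 0.985, 0.965, 0.964 and 0.944.

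*Ifng*, which encodes the best known inducer of the family, was scarce and followed the members. It was at 0.202, 1.87, 2.04 and 0.935 CPM in non-responders 1 to 4 and between 1.67 and 4.89 CPM (median 2.85) in responders. These values rest on 5 to 166 counts per tumor. Non-responder 1 was again lowest, and the groups overlapped. The log2 fold change of *Ifng* was 1.33 (SE 0.49; edgeR adjusted p = 0.102).

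Each member was correlated with *Ifng*, *Irf1* and *Ptprc* over the tumors, 21 relations in all. With *Ifng*, r was between 0.959 and 0.978 (permutation, adjusted p from 5.25e-05 to 8.75e-05) and Spearman's rho between 0.927 and 0.976 (permutation, adjusted p from 0.000525 to 0.000764). Without non-responder 1 and responder 1, the tumors farthest from the median of *Ifng*, r was between 0.873 and 0.948. Within the 6 responders r was between 0.848 and 0.965, and 6 of the 7 relations with *Ifng* passed 0.05 after adjustment (exact permutation, adjusted p from 0.0292 to 0.0802). By Spearman's rho, between 0.714 and 1.0 within responders, 0 of 7 passed (exact permutation, adjusted p from 0.0583 to 0.238). No value is given within non-responders, of which there were 4.

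The relation with *Irf1*, which encodes a transcription factor induced by interferon gamma, was looser outside the lowest tumors. Over all tumors r was between 0.969 and 0.985 and rho between 0.77 and 0.855 (permutation, adjusted p up to 0.00045 and 0.0129). Without non-responders 1 and 4, r was between 0.658 and 0.859 and 2 of the 7 relations no longer passed. Within responders r was between 0.595 and 0.856 and none passed (exact permutation, adjusted p from 0.152 to 0.252), and rho was only between 0.0857 and 0.371 (adjusted p from 0.696 to 0.919, exact permutation), so the relation rested in part on those tumors.

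With *Ptprc*, r was between 0.884 and 0.92 and rho between 0.842 and 0.976 (permutation, adjusted p up to 0.00043 and 0.00501). Without non-responder 1 and responder 5 it was between 0.846 and 0.96. Within responders r was between 0.465 and 0.806, and 0 of 7 relations passed (exact permutation, adjusted p from 0.0802 to 0.335). The rho there was between 0.543 and 0.886, and 0 of 7 passed either (exact permutation, adjusted p from 0.0875 to 0.446). The smallest unadjusted p in these relations, 1e-05, is the smallest that 100000 permutations can give.

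**Figure D4:**
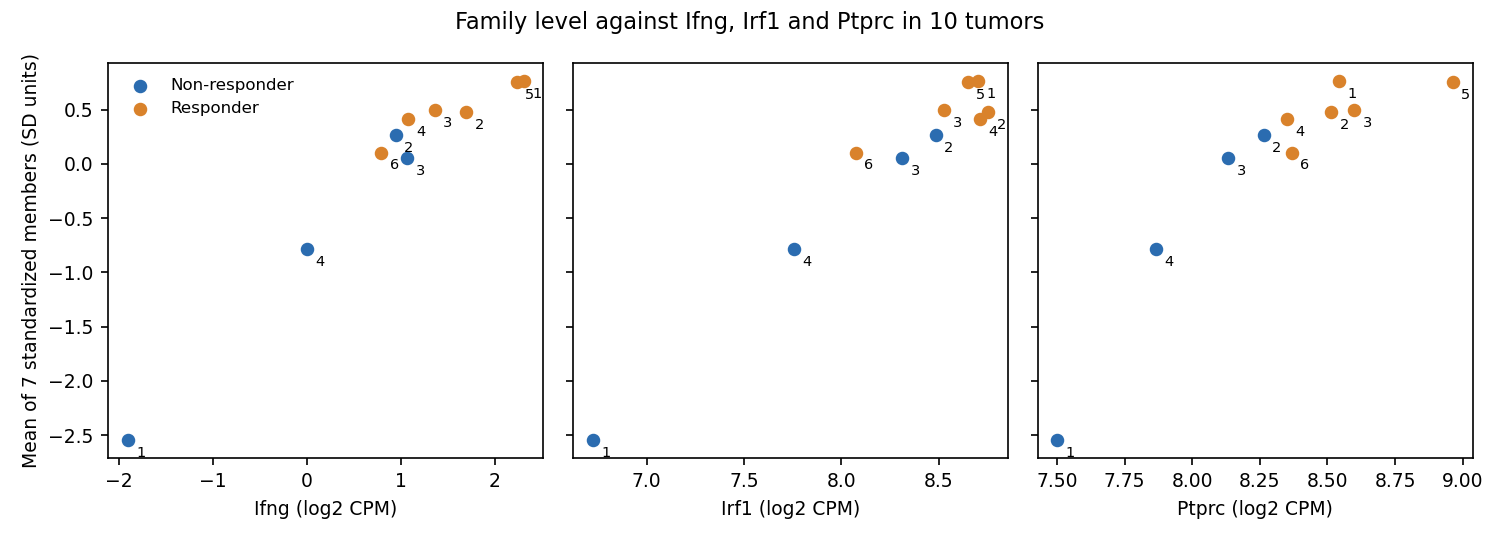
Mean of the 7 members, each standardized over the 10 tumors (vertical axis, SD units), against the log2 CPM of *Ifng*, *Irf1* and *Ptprc*, with tumors numbered within their group (blue, non-responders; orange, responders). Non-responder 1 lies at -2.54 SD units and non-responder 4 at -0.79, while the other 8 tumors lie between 0.05 and 0.77.

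The rest of the family was examined at 11 further loci. Of these 10 were found by name, all but *Iigp1b*, and 9 were tested. *Irgc1* had at most 3 counts in a tumor. Of the 9 tested, 8 had higher estimates in responders with a median log2 fold change of 1.02, and 0 of 9 were called. *Gm4841* had the largest estimate, at 1.40 (SE 0.40; edgeR adjusted p = 0.0531). It was at 25.1 to 54.8 CPM in responders and 3.76 to 22.3 CPM in non-responders, without overlap. The groups were also apart for *Gm4951*, at 62.8 to 87.8 CPM against 8.4 to 58.7 CPM (log2 fold change 1.04, edgeR adjusted p = 0.0938). Groups were thus apart for 2 of 9 loci, and for 10.4% of all genes tested in either direction (5.84% higher in responders).

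*Gm12250* was at 75.3 to 118.5 CPM in responders and 9.0 to 79.3 CPM in non-responders, a log2 fold change of 1.04 (edgeR adjusted p = 0.129). It is annotated as a processed pseudogene. *Gm12185*, whose annotated span overlaps that of *Tgtp1*, had a log2 fold change of 1.10 (adjusted p = 0.113) and *F830016B08Rik* one of 1.02 (adjusted p = 0.144). The estimates were smaller for *Gm5431* (0.65, adjusted p = 0.0777), *9930111J21Rik1* (0.54, adjusted p = 0.108) and *9930111J21Rik2* (0.60, adjusted p = 0.0529). *Irgq* was the exception, at 24.9 to 28.7 CPM in responders and 25.9 to 33.7 CPM in non-responders, with a log2 fold change of -0.11 (SE 0.07; adjusted p = 0.310).

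The guanylate-binding proteins, larger GTPases that act with the family at vacuoles, had higher estimates for 11 of 11 genes (median log2 fold change 1.03). Among them 1 of 11 passed, near the 8.06% of all genes tested that did (4.71% higher in responders). The groups did not overlap for 6 of 11, against 10.4% of all genes tested in either direction (5.84% higher in responders). The unadjusted edgeR p was under 0.05 for 11 of 11, against 15.6% of all genes that were both higher and under it. *Gbp11* rose by 1.59 on the log2 scale (SE 0.42; edgeR adjusted p = 0.0438), from 0.606 to 5.79 CPM in non-responders to 7.0 to 12.5 CPM in responders. *Gbp10* (1.52, adjusted p = 0.0727) and *Gbp8* (1.04, adjusted p = 0.0522) did not pass.

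On the interferon gamma route, 9 of 10 genes had higher estimates (median log2 fold change 0.64). Here 1 of 10 passed, again near the 8.06% of all genes tested. The groups did not overlap for 1 of 10, and the unadjusted edgeR p was under 0.05 for 7 of 10. Over all genes tested these shares were 10.4% in either direction and 15.6% for genes both higher and under 0.05. *Ciita*, the master regulator of MHC class II genes, rose by 1.05 (SE 0.27; edgeR adjusted p = 0.0423), with 92.7 to 136.9 CPM in responders against 21.8 to 71.3 CPM in non-responders. The values were 0.62 (adjusted p = 0.158) for *Irf1*, 0.66 (adjusted p = 0.0512) for *Irf8*, a transcription factor of myeloid cells, and 0.85 (adjusted p = 0.0867) for *Socs1*, the feedback inhibitor of the receptor kinases.

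Type I interferon receptor and signaling genes had higher estimates for 7 of 7 with a median log2 fold change of 0.39, and 0 of 7 passed. The 3 with the smallest p were the receptor chain *Ifnar2* (0.28, edgeR adjusted p = 0.0543), the receptor kinase *Tyk2* (0.21, adjusted p = 0.0632) and the transcription factor *Irf7* (0.57, adjusted p = 0.0693).

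The genes that attach ATG8 proteins to membranes, used for loading effectors on vacuoles, showed little movement. Higher estimates were found for 6 of 11 genes with a median log2 fold change of 0.00, and none exceeded 0.21 in size. *Map1lc3a*, which encodes an ATG8 protein, fell by 0.21 (SE 0.05; edgeR adjusted p = 0.0448), from 23.9 to 27.3 CPM in non-responders to 20.98 to 23.0 CPM in responders, and was the 1 call among the 11. *Atg5* (0.14, adjusted p = 0.0777) and *Atg3* (0.09, adjusted p = 0.124), enzymes of the attachment, did not pass. Of the 3 ubiquitin ligases and adaptors recruited to vacuoles, 0 passed. The log2 fold changes were -0.22 for *Sqstm1* (edgeR adjusted p = 0.0836), 0.50 for *Trim21* (adjusted p = 0.119) and 0.03 for *Traf6* (adjusted p = 0.791). The calls of *Gbp11*, *Ciita* and *Map1lc3a* were the 3 calls in the family and pathway lists. None of the 3 was kept in any fit that left out 1 of non-responders 1, 3 and 4 or of responders 1, 2, 3, 5 and 6.

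**Figure D5:**
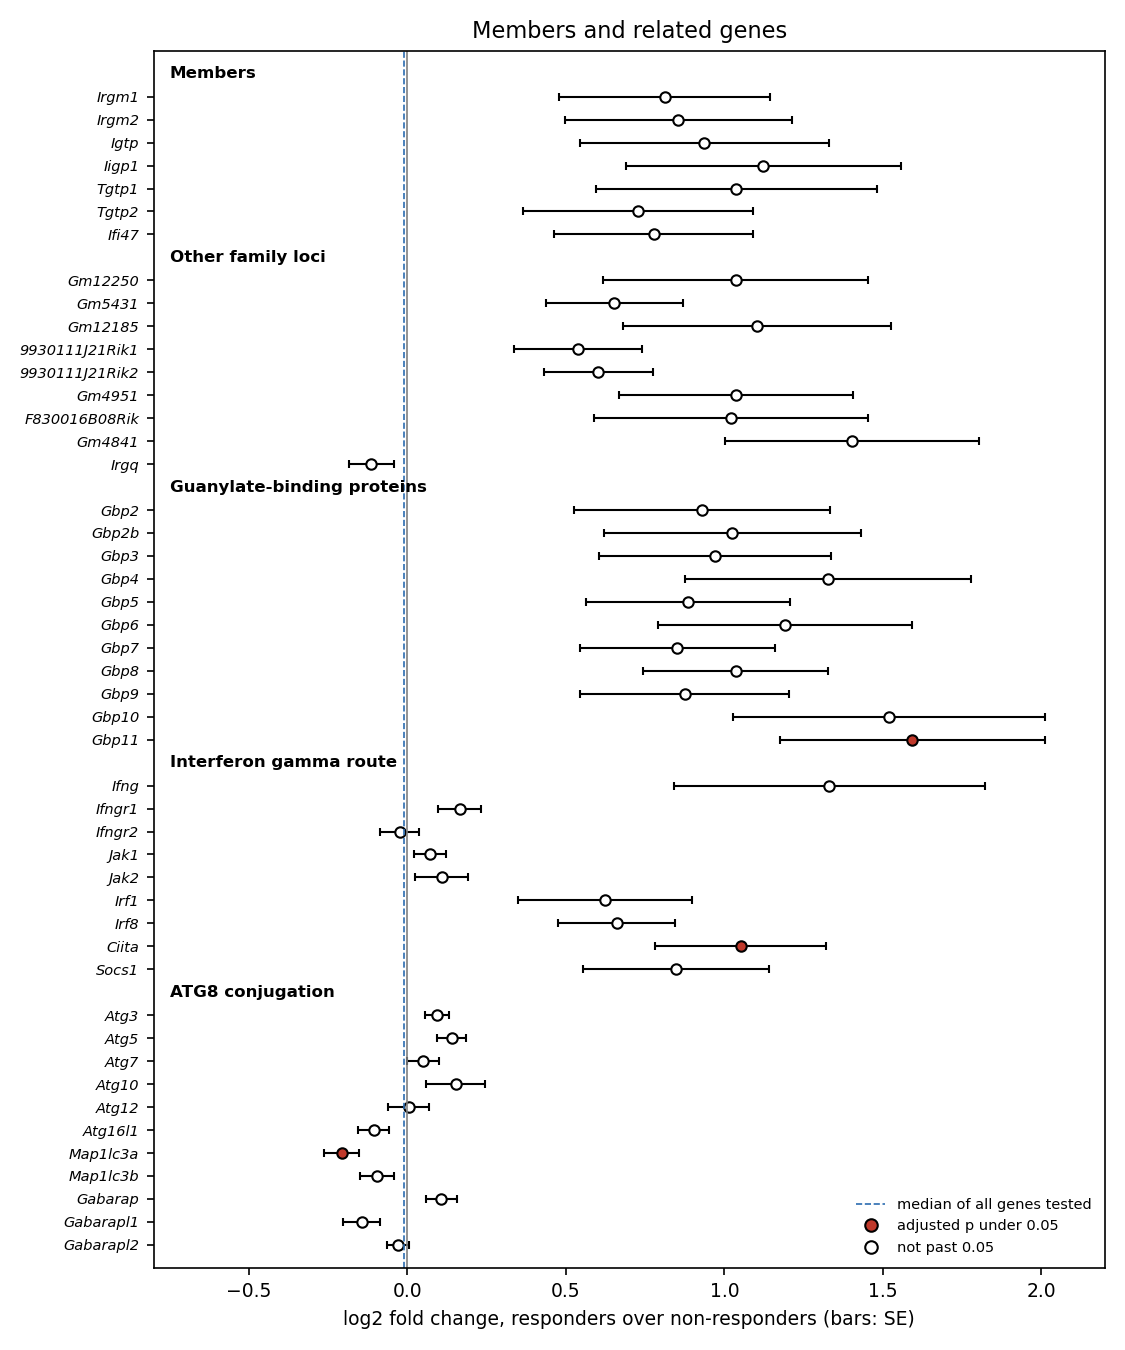
Log2 fold change of responders over non-responders with its SE (horizontal axis) for the 7 members, 9 other family loci, 11 guanylate-binding proteins, 9 genes of the interferon gamma route and 11 genes of ATG8 attachment. Filled red points have an edgeR adjusted p under 0.05, and the dashed line is the median of all genes, -0.01. The members lie between 0.73 and 1.12 with open points, as do most of the interferon-induced genes, while the ATG8 genes lie near 0.

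Depth was not limiting for the members. Total estimated counts were between 23374649 and 38042544 per tumor, and the members had from 303 (*Tgtp1*, non-responder 1) to 23743 (*Iigp1*, responder 5) counts. No 2 of the 10 libraries were near-identical, so each tumor was counted as 1 sample.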

How the data were processed

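Poly(A) RNA of 10 resected CT26 tumors was sequenced as paired reads. After a FastQC review of the reads, the authors quantified transcripts by Kallisto pseudoalignment and combined them per gene in tximport, using mm10 (GRCm38 in the submitters' processing notes). The authors deposited the resulting estimated counts (expected counts), 45.1% of which are fractional and none scaled to depth. Pseudoalignment divides reads between transcripts of shared sequence, which makes the *Tgtp1* and *Tgtp2* split uncertain. The annotation release, tximport scaling and strand setting are not given in the sources used here. Rows without a gene name, 9633 of 36009, held 1.04% to 1.23% of counts. They have gene identifiers and stayed in library sizes and tests.

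Groups came from the response labels. Rounded counts went into edgeR 4.0.16 (R 4.3.3), where filterByExpr (minimum count 10, minimum total 15) chose the genes, TMM set the scaling and the two-sided quasi-likelihood test gave p-values, called at 0.05 after Benjamini-Hochberg adjustment. CPM uses the TMM-scaled total, and log2 CPM a prior count of 2. The SE was taken as the size of the log2 fold change over the root of its F statistic. No batch was given and none was fitted. p-values cover the spread between these tumors. The exact test over 210 splits was computed in R, without adjustment. Permutation tests of the correlations were computed in Python 3.11.15, with ranks from scipy 1.17.1 and Benjamini-Hochberg adjustment over the 21 relations. Alternatives used DESeq2 1.42.0, limma 3.58.1, other scalings, no filter, thinned libraries, covariates, added *Tgtp* copies and leaving out each tumor. The edgeR script was tested on simulated data. Sequences and positions came from GENCODE M21 and RefSeq GRCm38.p6 (6 of 7 members matched), and CDS identity from global alignment.

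The members and lists were chosen with earlier results of these data known. Named genes were the members, the testable other family loci, the 3 genes with the smallest p of each further list, *Ifng*, *Irf1* and *Ptprc*, and the 5 genes most like the members. The values of 1 gene that this rule names are not reported here. *Krt8*, *Krt18*, *Epcam*, *Vil1*, *Krt20*, *Irgc1* and *Iigp1b* were named after their values were seen.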

Additional observations from a re-analysis of the deposited data

Results flagged for a closer look

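In the 6 responders, *Irgm1* was lowest in responder 6, at a log2 CPM of 7.95. Its gap to the next responder was 0.641 of the range of the group, above Dixon's 95% critical value for 6 samples. Chance flags about 1 in 20 groups, and 1 of 14 groups of member and response was flagged where 0.7 would be by chance. Responder 6 was the lowest responder for the other members as well, without passing the same limit.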

How the results depend on the processing

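No paired analysis was possible because the replicate numbers follow accession order and pair no tumors. The number of members called was 0 under every alternative and with any 1 tumor left out. Of 146 recomputed member fold changes, 139 kept their direction and 7 reversed, all with the *Ptprc* covariate, at -0.20 for *Irgm1*, -0.25 for *Irgm2*, -0.25 for *Igtp*, -0.20 for *Iigp1*, -0.20 for *Tgtp1*, -0.36 for *Tgtp2* and -0.23 for *Ifi47*. With limma-voom they were between 0.97 and 1.5 (adjusted p from 0.0769 to 0.127). Leaving out 1 tumor gave fold changes from 0.42 to 1.45. Unadjusted p under 0.05 was kept by 0 of 7 members without non-responder 4 and by 1 of 7 without responder 1 or responder 5. In those fits, 4106 of 16239, 4458 of 15983 and 3987 of 15942 genes were under it.

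The count of all genes called, 1293, was 2575 by DESeq2, 931 without a filter, 0 with the *Ptprc*, muscle or adipocyte covariate (845, 1077 and 1368 at an unadjusted p under 0.05), and from 0 to 1897 with 1 tumor left out. The 0 came without non-responder 4 (4106 at an unadjusted p under 0.05). Calls in the other family and pathway lists, 3, were 18 by DESeq2, 8 by limma-voom, 0 with each covariate, and from 0 to 19 with 1 tumor left out. Of the 21 relations, 6 passed within responders by Pearson's r, 0 by Spearman's rho, and 19 without the farthest 2 tumors. The causes were not tested. Depth limits *Ifng*, with 5 counts in 1 tumor.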
